A study of Daphnia magna with 2 samples.

Results

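The barcodes described here are those of 2 Daphnia magna single-cell libraries that carried transcripts of several DNA replication genes at once. Daphnia magna is a freshwater crustacean, and whole animals had been dissociated with collagenase and their polyA RNA barcoded in droplets by inDrops, which tags every captured transcript with a unique molecular identifier (UMI). By their titles, one sample, here the mixed sample, combined male with female and young with old animals, while the other, here the young sample, held young animals. Each is 1 sample of whole bodies kept under a standard laboratory regime, so no difference between them has a replicate check. A barcode of at least 1000 UMIs was taken as a replication-rule barcode, called a member below, by a list of replication genes. It had to have a UMI in at least 3 different entries of that list. Members were therefore chosen by measured counts, and the genes of the list are described but carry no result. The rule found 279 members among 1841 barcodes, 219 of 1034 in the mixed sample and 60 of 807 in the young sample.

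A cell copies its genome once per division, in S phase. The MCM proteins form the ring-shaped helicase that opens the double helix at the fork, and ribonucleotide reductase, made of a large (RNRL) and a small (RNRS) subunit, converts ribonucleotides to the deoxyribonucleotides that polymerases need. In most animals these genes are transcribed together around the start of S phase, so cells that carry several of their transcripts are usually taken as cycling or preparing to cycle.

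Of the 9 symbols in the rule, 6 were found in the gene lists, in 9 entries with 7 different identifiers. PCNA, the sliding clamp of the polymerases, MCM5 and MCM7 matched no entry, and the entry that carries the fly symbol MCM2 is named MCM9/MCM2 (DAPMA1EVG021873), after a relative of the replicative helicase. Of the 5 markers that define the label, only RNRL and RNRS were thus measured under their own names. The class rested largely on MCM3, MCM4, MCM6 and both subunits of ribonucleotide reductase, and it is called by its rule for that reason. Without the MCM9/MCM2 entry and the MCM8/DPA entry (DAPMA1EVG034445), 204 of the 219 mixed and 50 of the 60 young members still met the rule. With 3 different identifiers required in place of 3 entries, 215 mixed and 60 young members still met it.

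The small reductase subunit RRM2/RNRS (DAPMA1EVG020561) was detected in 78.5% of mixed members and 16.2% of the other mixed barcodes, and in 81.7% of young members and 11.2% of the other young barcodes. MCM4/DPA (DAPMA1EVG015342) was next, with a UMI in 75.8% of mixed members and 23.1% of other barcodes, and in 80.0% of young members and 20.5% of other barcodes. MCM3/MCM3 (DAPMA1EVG027423) was found in 66.7% of mixed members against 8.71% of other barcodes, and in 50.0% of young members against 3.48% of other barcodes. The large subunit RRM1/RNRL (DAPMA1EVG027762) was found in 58.0% of mixed members against 14.2% of other barcodes, and in 66.7% of young members against 14.7% of other barcodes. These differences are what the rule selects, so they describe the members and support nothing.

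MCM6/MCM6 (DAPMA1EVG025209) occurs as 2 entries with one identifier. The more abundant entry had 274 counts per 1000000 UMIs (CPM) in mixed members and 31.0 CPM in the other barcodes, and 114 CPM in young members and 32.3 CPM in the other barcodes. The other entry was detected in 27.4% of mixed members but in 3 of the 60 young members. Of the 2 entries of RRM2/RNRS, one held 371 counts in mixed members and 98 in young members and the other held none in either. Reads of such near-identical copies can be split by the counting, so the entries were not compared with each other.

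Free RNA in droplets also gives UMIs of these genes. RRM2/RNRS stood at 781 CPM in mixed members and 170 CPM in the other barcodes, against 156 CPM in the sum of all mixed barcodes under 500 UMIs. It stood at 590 CPM in young members and 102 CPM in the other barcodes, against 33.7 CPM in young barcodes under 500 UMIs. An exception was the more abundant MCM6 entry in the young sample, at 114 CPM in members and 127 CPM under 500 UMIs, so its UMIs there cannot be told apart from free RNA. As a check on background, 54 mixed barcodes with UMIs in at least 3 different epidermis and cuticle genes, at a median of 1917.5 UMIs, included 4 members (7.41%). In the young sample 38 such barcodes, at a median of 2039 UMIs, included 3 members (7.89%). The mixed share of 21.2% lay above the upper 95% limit of 17.9% for these cuticle-bearing barcodes, whereas the young share of 7.43% did not lie above theirs and cannot be told apart from background by this measure. Barcodes chosen in the same way by the fat body and yolk list (14.7%, upper limit 18.7%) and by the ion transport list (15.9%, 19.1%) also held members at a share whose upper limit lay below 21.2%. For the other 5 lists of differentiated tissue the mixed share ran from 20.4% with hemocyte and matrix genes to 27.9% with neuronal genes, so for these the pooled share did not lie above the limit. These comparisons did not match the library codes described below. Without the codes MY1 and MY2 the mixed share was 8.07%, below the limits of 17.9%, 18.7% and 19.1%. The check therefore cannot decide whether mixed members stand above background. With every barcode thinned to 1000 UMIs, 0 of 37 mixed and 0 of 24 young barcodes with 3 epidermis and cuticle genes met the rule. This allows shares of up to 8.11% (3 of 37) and 12.5% (3 of 24).

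Members made up 21.2% of mixed barcodes (95% Clopper-Pearson interval 18.7 to 23.8, counting error only) and 7.43% of young barcodes (5.72 to 9.47). The rule's threshold lay within a continuous range. In the mixed sample 395 barcodes had no rule gene, 257 had 1, 163 had 2 and thus lay just outside, 113 had 3 and thus lay just inside, and 106 had 4 or more. In the young sample the same classes held 397, 255, 95, 41 and 19 barcodes. The largest number of rule genes in a barcode was 7 in the mixed sample and 5 in the young sample.

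Both files also give each barcode a library code, which they do not spell out, and the members were spread very unevenly over the codes. MY2 held 116 members among 248 barcodes (46.8%, interval 40.4 to 53.2) and MY1 held 49 among 117 (41.9%, 32.8 to 51.4). FYB, with the most barcodes of any code in the mixed sample, held 46 members among 477 (9.64%, 7.15 to 12.7). FO2 had 6 members among 59 barcodes, FO1 had 1 among 39, FYH had 1 among 79, and F4W had none among 15, which allows a share of up to 20.0% (3 of 15). MY1 and MY2 together held 75.3% of the mixed members but 35.3% of the mixed barcodes. Without these codes the mixed share was 8.07% (6.12 to 10.4), and its interval overlapped that of the young sample. In the young sample the shares were 9.09% in CH1 (31 of 341), 6.90% in Y2 (10 of 145) and 5.92% in CH2 (19 of 321), and their intervals overlapped.

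Members were also deeper. The median member held 2053 UMIs in the mixed sample, against 1526 UMIs in the other barcodes, and 2755.5 UMIs in the young sample, against 1516 UMIs in the other barcodes. In barcodes of 1000 to 1499 UMIs 12% of mixed and 1.88% of young barcodes were members. From 3000 UMIs upwards 34.8% of mixed and 41.9% of young barcodes were members, so in the deepest class the samples no longer stood in the order of the pooled shares. With every barcode thinned to 1000 UMIs, 91 mixed barcodes (8.80%) and 18 young barcodes (2.23%) met the rule. MY1 (21.4%) and MY2 (20.2%) still held the largest thinned shares, against 2.94% in FYB, 3.23% in CH1, 0.935% in CH2 and 2.76% in Y2. Because depth and code move with membership, the ratios of the lists and of most genes named below are set beside a weighted ratio, in which the other barcodes were weighted to the members' mix of codes and of 4 depth classes.

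**Figure D1:**
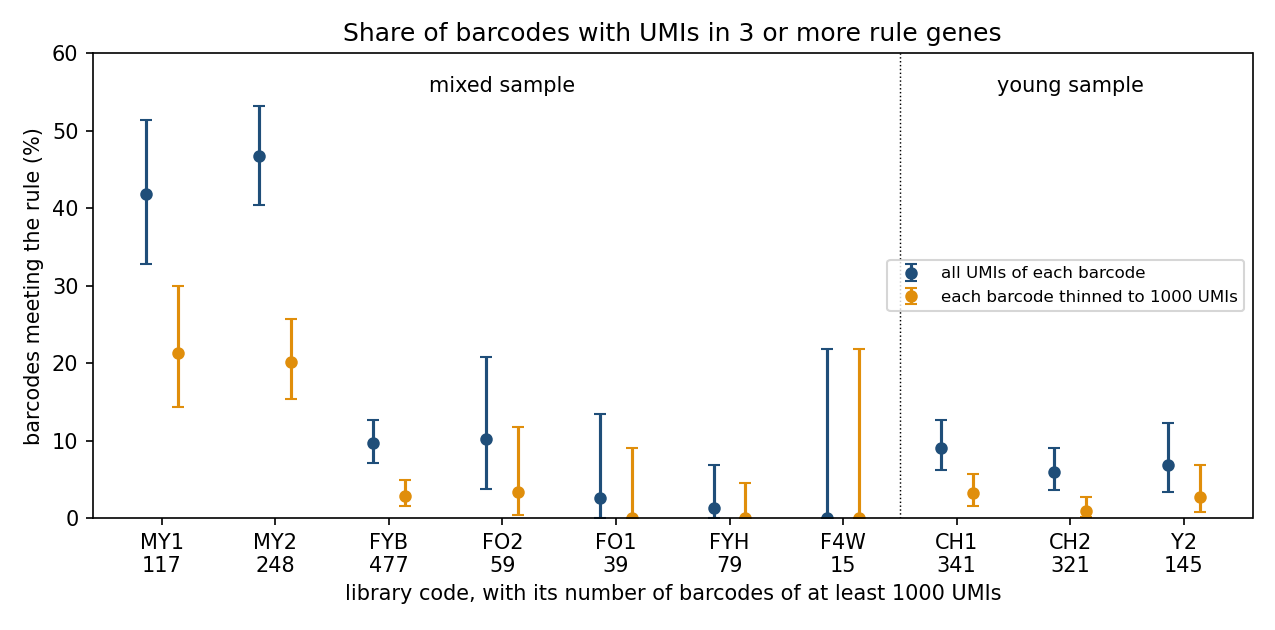
Percentage of barcodes of at least 1000 UMIs that meet the rule, by library code, at each barcode's own depth (blue) and after thinning to 1000 UMIs (orange); points are shares and bars are 95% Clopper-Pearson intervals. MY1 and MY2 stand at 41.9% and 46.8%, and at 21.4% and 20.2% after thinning, and the intervals of both lie above those of FYB, CH1, CH2 and Y2 at either depth.

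Members expressed a broader set of genes at equal depth. After thinning to 1000 UMIs the median member had 763 different genes in the mixed sample (quartiles 726 and 781), against 595 in the other barcodes (513.5 and 704). The median young member had 677.5 genes (650.5 and 706.5), against 587 in the other barcodes (518.5 and 646). Within codes the gap varied. It was widest in FYB, with medians of 705 genes in members and 569 in other barcodes. It was narrowest in MY2, with 773 and 762, and in MY1, with 772 and 741.5, where the other barcodes were themselves rich in genes.

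To see which other genes set members apart, counts were summed over members and over the other barcodes of each sample and the CPM of the sums compared. With the 9 rule entries left out, 3047 genes had an expected count of at least 10 in the members' sum of both samples and were tested. Of these, 200 (6.56%) were at least 2-fold higher in members in both samples, and 519 (17.0%) were at least 2-fold lower. The lower genes held 1.80% of the UMIs of mixed members and 18.6% of those of the other mixed barcodes, and 3.59% of the UMIs of young members and 20.3% of those of the other young barcodes. The higher genes held 9.82% of the UMIs of mixed members against 3.65% in other barcodes, and 7.32% of those of young members against 2.58% in other barcodes. The median log2 ratio over all tested genes was 0.12 in the mixed sample and 0.14 in the young sample. TMM scaling, which assumes that most genes do not differ, moved all log2 ratios by 0.52 in the mixed and 0.37 in the young sample towards the other barcodes and left 36 genes higher and 674 lower.

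Weighting the other barcodes to the members' codes and depths left 11 genes (0.361%) at least 2-fold higher in both samples and 364 (11.9%) at least 2-fold lower. Of the 200 higher genes 7 passed 2-fold again under the weighting, while 190 kept a ratio above 1 in both samples. Of the 519 lower genes 358 passed again and 499 kept a ratio below 1 in both. Most of the higher genes thus differed from other barcodes of like code and depth by less than 2-fold in at least 1 sample, whereas most of the lower genes passed again. Across the 3047 genes, which are not independent of each other, the log2 ratio in the mixed sample was related to that in the young sample at r = 0.799 (Pearson) and rho = 0.699 (Spearman). Both sets of members were selected on the same rule genes.

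**Figure D2:**
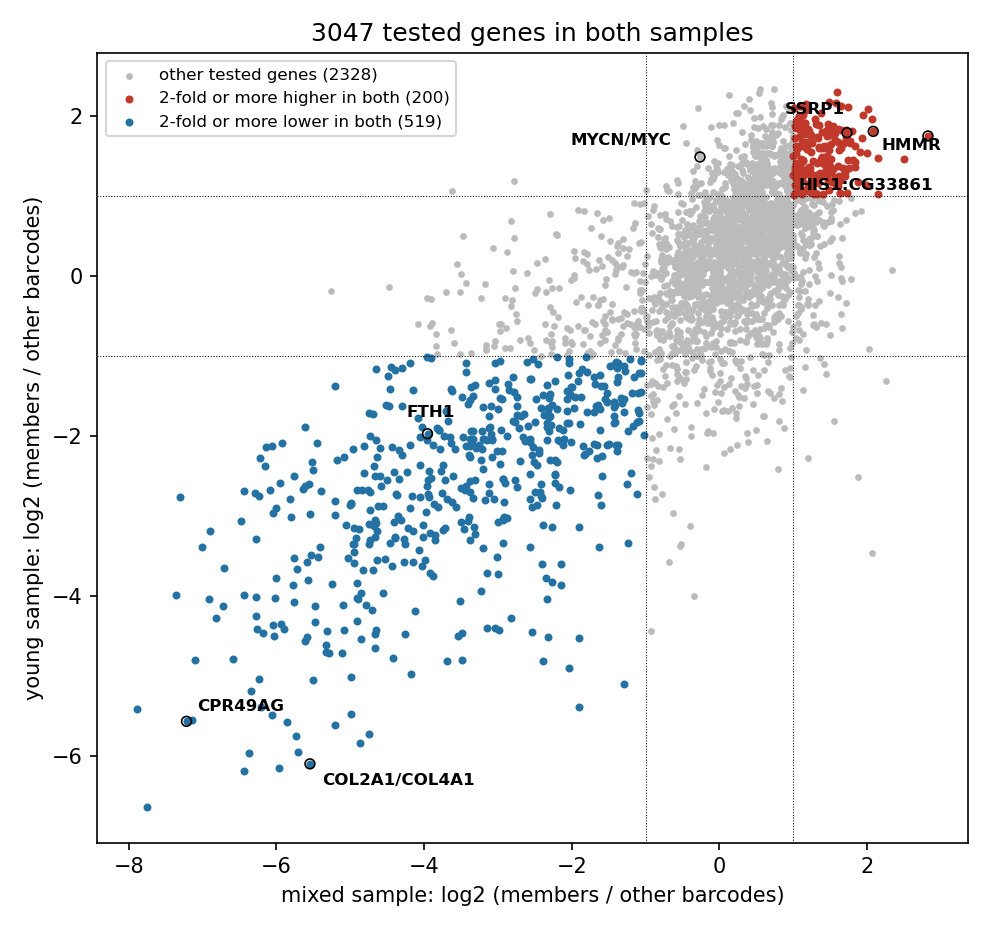
Log2 ratio of CPM, members over other barcodes, in the mixed (x axis) and the young sample (y axis) for each of 3047 tested genes; dotted lines mark 2-fold. The 519 lower genes (blue) reach much larger ratios than the 200 higher ones (red), and MYCN/MYC lies on different sides of 0 in the samples.

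Histone H1, the linker histone that binds DNA between nucleosomes, stood among the higher genes. H1F0/HIS1:CG33861 (DAPMA1EVG004595, gene m000000F_a45.53) had 476 counts in mixed members and 205 in the other mixed barcodes, or 1002 CPM against 141 CPM, a 7.09-fold ratio (6.0 to 8.39, counting error only). In the young sample it had 106 counts in members and 241 in the other barcodes, or 638 CPM against 190 CPM, a 3.36-fold ratio (2.64 to 4.24). Weighted by code and depth the ratios were 5.21 and 4.42, so it was among the 7 that passed again. A neighbouring entry with the same identifier and no symbol (m000000F_a45.60) stood at 1179 CPM in mixed members against 292 CPM, and at 759 CPM in young members against 178 CPM. Its weighted ratios were 2.79 in the mixed and 3.37 in the young sample. The shared identifier means that reads of these entries could be split by the counting.

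By library code, H1F0/HIS1:CG33861 was higher in members in 5 of the 6 codes with at least 10 members. It stood at 1978 CPM in members and 239 CPM in other barcodes of MY1, at 1122 CPM and 319 CPM in MY2, at 444 CPM and 245 CPM in CH1, at 878 CPM and 180 CPM in CH2, and at 723 CPM and 89.9 CPM in Y2. FYB was the exception, with 5 counts in members (44.9 CPM) and 66 in other barcodes (84.8 CPM). Without MY1 and MY2 the mixed log2 ratio was therefore −1.06, so the mixed result rests on these codes. The second H1 entry, H1F0/HIS1:CG33864 (DAPMA1EVG024508), was higher in members in 6 of 6 codes. It had 1072 CPM in mixed members against 407 CPM in other barcodes, and 982 CPM in young members against 282 CPM in other barcodes, with weighted ratios of 2.44 and 1.93.

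**Figure D3:**
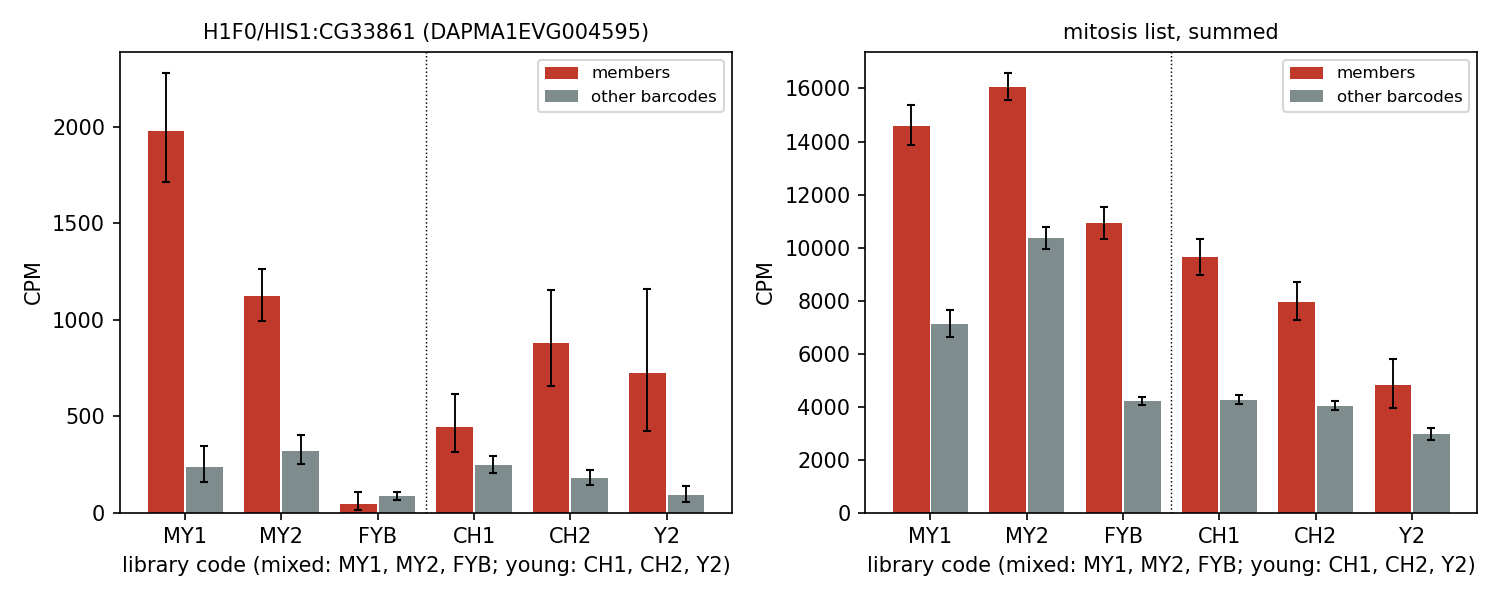
CPM of H1F0/HIS1:CG33861 (left) and of the summed mitosis list (right) in members (red) and other barcodes (grey) of the 6 library codes with at least 10 members; error bars are exact 95% Poisson intervals and cover counting error only. The histone entry is higher in members in every code but FYB (44.9 CPM in members, 84.8 CPM in other barcodes), while the mitosis list is higher in members in all 6.

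Histones as a group followed. Of 29 histone entries 7 were tested, 4 were at least 2-fold higher in both samples and 0 were lower, and 1 was higher after weighting. Among all tested genes 6.56% were higher and 17.0% lower, and 0.361% were higher after weighting. Replication-dependent histone transcripts of many animals lack a polyA tail, so a polyA protocol can miss a part of them. The core histone entry with the most counts, HIST2H2AB/HIS2A:CG33865 (DAPMA1EVG019142), had 2855 CPM in mixed members against 1030 CPM in other barcodes, and 1560 CPM in young members against 587 CPM in other barcodes, with weighted ratios of 1.58 and 1.36. HIST2H3PS2/HIS3:CG33866 (DAPMA1EVG004083) had 246 CPM in mixed members against 184 CPM, and 2481 CPM in young members against 1847 CPM, under 2-fold in both. The summed histone level was 2.75-fold in the mixed and 2.02-fold in the young sample, and 1.91-fold and 1.48-fold after weighting.

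Among genes of the replication fork that the rule did not use, 9 of 28 matched entries were tested. The median log2 ratio was 1.37 in the mixed and 0.77 in the young sample. At 2-fold 3 were higher and 0 lower, against 6.56% and 17.0% of all tested genes. The 3 were RPA1/RPA, TOP2A/TOP2 and POLE2/DNAPOL. RPA1/RPA (DAPMA1EVG030620) binds the single-stranded DNA exposed at the fork. It had 219 CPM in mixed members against 67.6 CPM, and 199 CPM in young members against 83.5 CPM, with weighted ratios of 1.53 and 3.45. TOP2A/TOP2 (DAPMA1EVG016347), the topoisomerase that untangles sister DNA molecules, had 1097 CPM in mixed members against 336 CPM, and 355 CPM in young members against 144 CPM, with weighted ratios of 1.47 and 1.80.

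Other fork genes stayed below 2-fold in at least 1 sample. GINS3/PSF3 (DAPMA1EVG011772), a subunit of the active helicase, was 2.58-fold in the mixed sample and 1.29-fold in the young sample, and 1.80 and 1.67 after weighting. The DNA ligase LIG1/DNALIG1 (DAPMA1EVG028882), which joins the fragments of the lagging strand, was 1.81-fold and 1.70-fold, and 1.25 and 1.18 after weighting. TOP1/TOP1 (DAPMA1EVG025065), a topoisomerase used in transcription as well as replication, was 1.17-fold and 1.15-fold, and 1.0 and 0.995 after weighting. TIMELESS/TIMEOUT (DAPMA1EVG031776), a fork protection protein, had 46.3 CPM in mixed members against 15.2 CPM, but 84.3 CPM in young members against 101 CPM. Its ratios after weighting by code and depth were 2.25 and 2.14, so its direction in the young sample turned with the weighting. Weighting by code alone left the young log2 ratio at −0.131, and young members held 14 counts of it. Of the 10 matched genes that load the helicase before S phase, such as subunits of the origin recognition complex, 0 had enough counts to be tested.

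The summed fork list stood at 4028 CPM in mixed members against 1744 CPM in other barcodes, and at 3035 CPM in young members against 1922 CPM in other barcodes. The ratios were 2.31 and 1.58, and 1.42 and 1.5 after weighting. The list was higher in members in 6 of 6 codes, from 1.27-fold in MY2 to 1.84-fold in MY1.

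Of 8 tested genes of nucleotide synthesis 1 was higher and 2 were lower, against 6.56% and 17.0% of all tested genes, and after weighting 0 passed in either direction. CTPS1/CTPSYN (DAPMA1EVG013592), which makes CTP, was higher, with 240 CPM in mixed members against 82.7 CPM and 325 CPM in young members against 89.1 CPM, with weighted ratios of 2.08 and 1.80. Enzymes of folate metabolism, MTHFD1/PUG (DAPMA1EVG031793) and SHMT2/SHMT (DAPMA1EVG015422), were lower. SHMT2/SHMT had 103 CPM in mixed members against 334 CPM, and 102 CPM in young members against 246 CPM, with weighted ratios of 0.527 and 0.785. IMPDH1/RAS (DAPMA1EVG030837), the first enzyme of guanine nucleotide synthesis from inosine monophosphate, had 122 CPM in mixed members against 186 CPM, and 771 CPM in young members against 2338 CPM, with weighted ratios of 1.22 and 0.626.

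Among factors that rebuild chromatin behind the fork, 5 of 7 tested genes were higher in both samples and 1 was lower, with a median log2 ratio of 1.31 in the mixed and 1.41 in the young sample. After weighting 0 were higher, and the medians were 0.74 and 0.34. All tested genes gave 6.56% higher and 17.0% lower, and 0.361% higher after weighting. The 5 included both subunits of FACT, a chaperone that moves histones ahead of and behind polymerases. SSRP1/SSRP (DAPMA1EVG013593) had 480 CPM in mixed members against 145 CPM, and 373 CPM in young members against 108 CPM, with weighted ratios of 1.82 and 2.34. SUPT16H/DRE4 (DAPMA1EVG011543) had 282 CPM in mixed members against 102 CPM, and 217 CPM in young members against 58.3 CPM, with weighted ratios of 1.86 and 3.47. CHAF1A/CAF1 (DAPMA1EVG024510) and RBBP4/CAF1 (DAPMA1EVG017650), subunits of the assembly factor CAF-1, were 2.76-fold and 2.48-fold in the mixed sample and 3.53-fold and 2.29-fold in the young sample. Their weighted ratios were 1.74 and 1.41 in the mixed and 2.16 and 1.13 in the young sample. NAP1L1/NAP1 (DAPMA1EVG004663), a carrier of H2A and H2B, had 1539 CPM in mixed members against 750 CPM, and 1800 CPM in young members against 679 CPM, with weighted ratios of 1.67 and 1.27.

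An entry in that list went the other way. HAT1/HAT1 (DAPMA1EVG021035), named for the acetyltransferase that marks new histone H4, had 5 counts in mixed members against 155 in the other barcodes, and 0 in young members against 157 in the other barcodes. With the young members set to 3 counts it was at least 6.85-fold lower there, and it was lower after weighting too. It was singled out after its values were seen.

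Of 5 tested genes of cohesin, the ring that holds sister chromatids together from replication to mitosis, 3 were at least 2-fold higher in both samples, and 0 after weighting. Among all tested genes the shares were 6.56% and 0.361%. All 5 had ratios above 1 in both samples, before and after weighting. STAG1/SA (DAPMA1EVG029033), a subunit of the ring, had 417 CPM in mixed members against 127 CPM, and 542 CPM in young members against 165 CPM, with weighted ratios of 2.18 and 1.38. The loader NIPBL/NIPPED (DAPMA1EVG023864) had 575 CPM in mixed members against 203 CPM, and 199 CPM in young members against 87.5 CPM, with weighted ratios of 1.36 and 1.58. SMC1A/SMC1 (DAPMA1EVG021684) was 2.88-fold in the mixed and 1.87-fold in the young sample, and 2.12 and 1.25 after weighting.

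Mitotic genes were the most abundant of the lists that were higher in the members of both samples. They summed to 14187 CPM in mixed members against 5499.8 CPM in other barcodes, and to 8346 CPM in young members against 3923 CPM in other barcodes, ratios of 2.58 and 2.13. After weighting the ratios were 1.73 and 1.23, and members were higher in 6 of 6 codes. Of 11 tested genes 5 were higher in both samples, 0 were lower and 2 stayed higher after weighting. Among all tested genes 6.56% were higher and 17.0% lower, and 0.361% were higher after weighting.

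The 5 were KIF11/KLP61F, KIF18A/KLP67A, CKS1B/CKS30A, TPX2 and AURKA/AURA. KIF18A/KLP67A (DAPMA1EVG012464), a kinesin that shortens spindle microtubules, had 460 counts in mixed members against 248, or 969 CPM against 171 CPM, and 169 CPM in young members against 61.5 CPM. Its weighted ratios were 2.17 and 2.31. TPX2 (DAPMA1EVG033257), which activates the kinase Aurora A on the spindle, had 354 CPM in mixed members against 150 CPM and 409 CPM in young members against 121 CPM. Its weighted ratios were 2.31 and 2.0. CKS1B/CKS30A (DAPMA1EVG017969), a small partner of cyclin-dependent kinases, had 299 CPM in mixed members against 99.3 CPM and 259 CPM in young members against 52.8 CPM, with weighted ratios of 1.82 and 2.61.

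Mitotic cyclins were close to the threshold. CCNB1/CYCB (DAPMA1EVG030556) had 1575 CPM in mixed members against 787 CPM, just under 2-fold, and 2192 CPM in young members against 668 CPM. After weighting its ratio was 1.99 in the mixed but 1.07 in the young sample. CDC20/FZY (DAPMA1EVG031695), the activator of the anaphase-promoting complex, was 1.20-fold and 1.15-fold. At equal depth, thinned to 1000 UMIs, 95.9% of mixed members had UMIs in at least 3 different mitosis genes, against 42.3% of the other barcodes, and 75% of young members, against 24.5% of the other barcodes. Library codes were not matched here, and in other barcodes the mitosis list stood at 7121 CPM in MY1 and 4213 CPM in FYB. A barcode holding transcripts of replication and mitosis genes together can be 1 cell or a doublet, and these were not told apart.

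G1/S regulators were higher in sum, 2.25-fold in the mixed and 1.51-fold in the young sample, and 1.60-fold and 1.11-fold after weighting. Of 6 tested genes 2 passed, and 0 after weighting. They were the E2F partner TFDP2/DP (DAPMA1EVG020504) at 400 CPM in mixed members against 173 CPM and 349 CPM in young members against 136 CPM, and CDK3/CDK2 (DAPMA1EVG017813). The weighted ratios of TFDP2/DP were 1.58 and 1.21. CCND2/CYCD (DAPMA1EVG013332), the cyclin that starts G1 progression, was at 522 CPM in mixed members against 365 CPM and 476 CPM in young members against 273 CPM, with weighted ratios of 1.75 and 1.05. In the DNA repair list 1 of 7 tested genes passed, PARP1/PARP (DAPMA1EVG019004), a sensor of strand breaks, with 377 CPM in mixed members against 127 CPM and 289 CPM in young members against 89.1 CPM. Its weighted ratios were 1.67 and 1.49, so 0 passed after weighting. Of all tested genes 6.56% were higher, and 0.361% after weighting.

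**Figure D4:**
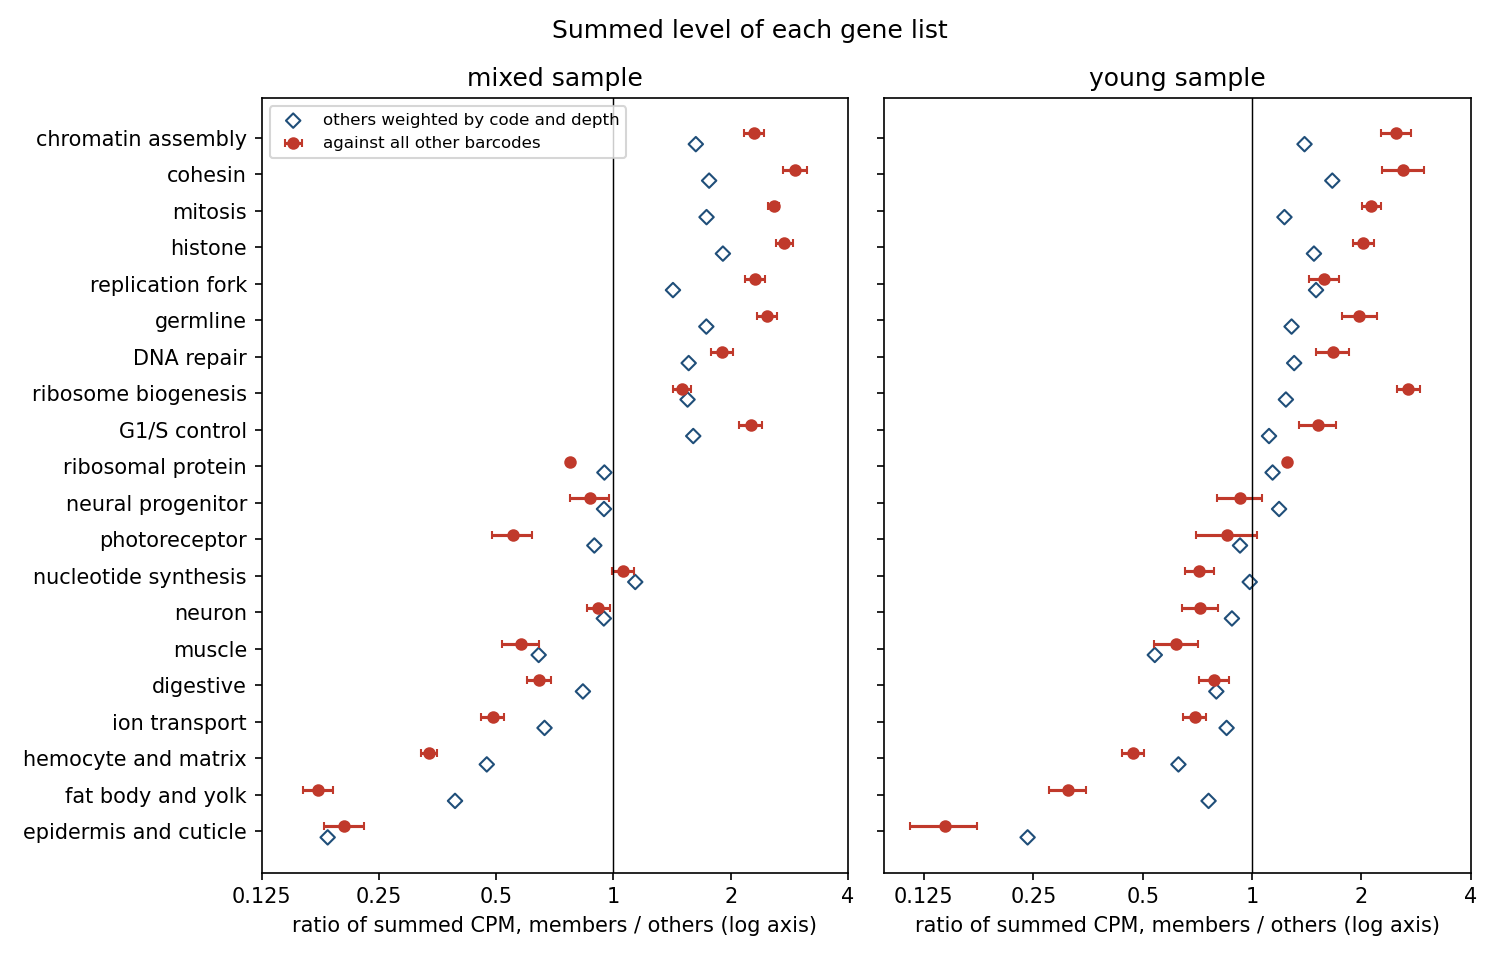
Ratio of the summed CPM of each gene list, members over other barcodes, in the mixed (left) and young (right) sample on a log axis; filled circles use all other barcodes, with exact 95% intervals for counting error, and open diamonds use other barcodes weighted to the members' library codes and depths. The cell-cycle, chromatin and germline lists lie above 1 in both samples by either measure, and the epidermis and cuticle list lies lowest in the young sample and, after weighting, in both.

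Growth genes stood differently in the samples, a difference that was not tested. Genes that build ribosomes summed to 4310 CPM in mixed members against 2881 CPM in other barcodes, a ratio of 1.5, and to 6377 CPM in young members against 2367 CPM in other barcodes, a ratio of 2.69. After weighting the ratios were 1.55 and 1.24. Of 10 tested genes 3 passed, and 0 after weighting, against 6.56% and 0.361% of all tested genes. Among the 3 was NOP58/NOP5 (DAPMA1EVG028281), a core protein of the nucleolar particles that methylate ribosomal RNA. It had 379 CPM in mixed members against 184 CPM and 560 CPM in young members against 195 CPM. Its weighted ratios were 2.08 and 1.64. Of 60 tested ribosomal protein genes 0 passed in either direction, with a median log2 ratio of −0.42 in the mixed and 0.27 in the young sample. Their sum was 0.773-fold in the mixed and 1.25-fold in the young sample, and 0.948-fold and 1.14-fold after weighting. TMM scaling turned the median of the young sample to −0.10, so no direction is given for it.

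Germline genes were included because dividing cells of a whole Daphnia could be germ cells. Of 8 tested entries 5 were higher in both samples and 0 lower, against 6.56% and 17.0% of all tested genes, but after weighting 0 passed. They were 2 of the 3 entries named PIWIL1/AUB, after a protein that silences transposons with piRNAs, BOLL/BOL, TDRD1/CG32260 and TDRD15/TUD. The entry PIWIL1/AUB DAPMA1EVG018783 had 602 CPM in mixed members against 135 CPM, and 193 CPM in young members against 69.4 CPM, with weighted ratios of 1.99 and 0.813. The third, PIWIL1/AUB DAPMA1EVG018095, had 29.5 CPM in mixed members against 163 CPM, and 367 CPM in young members against 411 CPM. At equal depth 56.2% of mixed members had UMIs in at least 3 germline genes, against 16.0% of the other barcodes, and 21.7% of young members, against 8.03% of the other barcodes. These shares did not match the library codes. In other barcodes the germline list stood at 2156 CPM in MY1 and 1350 CPM in FYB. Its summed ratio was 2.48 in the mixed and 1.98 in the young sample, and 1.73 and 1.28 after weighting by code and depth. How far germ cells contribute to the members was not tested.

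The genes that were 2-fold higher and ranked highest by the smaller of their 2 ratios were mostly of the kinds above. HMMR (DAPMA1EVG017387), whose human counterpart organises the spindle, came first. It had 592 counts in mixed members against 426, or 1246 CPM against 294 CPM, and 38 counts in young members against 83, or 229 CPM against 65.4 CPM. It was higher in 6 of 6 codes, although its weighted log2 ratios were 0.82 and 0.91. Also among the 12 were CSE1L/CSE1 (DAPMA1EVG013306), which exports importin alpha from the nucleus, MASTL/GWL (DAPMA1EVG032148), the Greatwall kinase that holds back a phosphatase during mitosis, and MELK/AMPKALPHA (DAPMA1EVG018704), a kinase entry. MELK/AMPKALPHA had 745 CPM in mixed members against 209 CPM and 217 CPM in young members against 70.1 CPM, with weighted ratios of 1.81 and 2.07, and was higher in 6 of 6 codes.

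Others in that ranking were SH3RF3/POSH (DAPMA1EVG025292), a scaffold of JNK signalling, STK38/TRC (DAPMA1EVG020222), an NDR kinase, and the cadherin PCDH15/CAD99C (DAPMA1EVG021128). Their log2 ratios ranged from 1.61 to 1.77 in the mixed sample and from 1.66 to 1.82 in the young sample. After weighting the ratios of SH3RF3/POSH were 1.77 and 1.30, those of STK38/TRC 1.34 and 2.21, and those of PCDH15/CAD99C 2.12 and 1.10. The entry DAPMA1EVG023268, which has no symbol, had 2402 CPM in mixed members against 571 CPM, and 801 CPM in young members against 205 CPM, with weighted ratios of 1.68 and 1.42, and was higher in 6 of 6 codes.

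Of the 11 genes that passed after weighting, 6 carried a symbol besides the histone: KIF18A/KLP67A, TPX2, TIMELESS/TIMEOUT, ABCF2/CG9281, PTPRS and FN3KRP. ABCF2/CG9281 (DAPMA1EVG012358) had 189 CPM in mixed members against 81.4 CPM and 199 CPM in young members against 56.7 CPM, with weighted ratios of 2.16 and 3.32. FN3KRP (DAPMA1EVG024819), named for a kinase that acts on glycated proteins, had 90.5 CPM in mixed members against 42.1 CPM and 259 CPM in young members against 74.1 CPM, with weighted ratios of 2.84 and 2.29. These 6 were taken from the weighted comparison after its values were seen.

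Among genes of differentiated tissue, those of the cuticle stood at the lower end of the range in members. CPR49AG DAPMA1EVG029381, a chitin-binding cuticle protein, had 2 counts in mixed members against 1364 in the other barcodes, and 1 in young members against 1088 in the other barcodes. CPR49AG DAPMA1EVG029378 had 2 counts in mixed members against 481, and 2 in young members against 1416. CPR49AG DAPMA1EVG029382 had 7 counts in mixed members against 1142, or 14.7 CPM against 787 CPM, and 0 in young members against 1239, which set at 3 counts is at least 54.1-fold lower. CPR49AE (DAPMA1EVG024679) had 0 counts in mixed members against 233, and 1 in young members against 574. In members DAPMA1EVG029382 and DAPMA1EVG029378 were lower in 6 of 6 codes. DAPMA1EVG029381 and CPR49AE were lower in 5, and in MY1 both classes had 0 counts of them.

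The epidermis and cuticle list summed to 625 CPM in mixed members against 3073 CPM in other barcodes, and to 548 CPM in young members against 3845 CPM in other barcodes. The ratios were 0.203 and 0.143, and 0.185 and 0.241 after weighting. Of 7 tested genes 6 were lower in both samples and 5 stayed lower after weighting, against 17.0% and 11.9% of all tested genes. The seventh, HAS1/KKV (DAPMA1EVG028384), named for the fly chitin synthase, was higher in members, with 480 CPM in mixed members against 312 CPM and 409 CPM in young members against 170 CPM, and weighted ratios of 1.31 and 1.48.

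Hemocyte and matrix genes were lower in members as well. Of 26 tested entries 16 were lower in both samples, 0 were higher and 12 stayed lower after weighting. All tested genes gave 17.0% lower, and 11.9% after weighting. The list's median log2 ratio was −2.11 in the mixed and −1.95 in the young sample. COL2A1/COL4A1 (DAPMA1EVG031663), named for the collagen of basement membranes, had 9 counts in mixed members against 1284, or 18.9 CPM against 885 CPM, and 2 counts in young members against 1573. Its weighted ratios were 0.0832 in the mixed sample and, with the young members set to 3 counts, 0.0294 in the young sample. COL5A1/COL4A1 (DAPMA1EVG011456) had 10.5 CPM in mixed members against 410 CPM and 24.1 CPM in young members against 634 CPM, with weighted ratios of 0.125 and 0.0552. PAPLN/PPN (DAPMA1EVG018391), papilin, a secreted matrix protein of fly hemocytes, had 54.7 CPM in mixed members against 1149 CPM and 175 CPM in young members against 1699 CPM, with weighted ratios of 0.0894 and 0.252. PXDN/PXT (DAPMA1EVG033120) went against the group, with 1318 CPM in mixed members against 818 CPM and 1234 CPM in young members against 499 CPM, and weighted ratios of 3.74 and 1.32. Of its 626 counts in mixed members 532 lay in FYB and 3 in MY1. It was higher in members in 6 of 6 codes, from 1.12-fold to 4.81-fold in FYB. Weighted by depth within codes, it was higher in 4 of 6, from 0.674-fold to 4.49-fold.

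Iron storage and oxygen transport genes of the fat body and yolk list were lower too. FTH1/FER3HCH (DAPMA1EVG029148), a ferritin heavy chain, had 105 counts in mixed members against 4967, or 221 CPM against 3425 CPM, and 140 counts in young members against 4200, or 843 CPM against 3310 CPM. Its weighted ratios were 0.167 and 0.621, so the young value passed 2-fold only without weighting. CYGB/GLOB1 (DAPMA1EVG022505), a globin, had 27.4 CPM in mixed members against 416 CPM and 36.1 CPM in young members against 334 CPM, with weighted ratios of 0.196 and 0.260. Of 8 tested genes 5 were lower in both samples and 4 after weighting, against 17.0% and 11.9% of all tested genes. The list's summed ratio was 0.175 in the mixed and 0.311 in the young sample, and 0.392 and 0.759 after weighting.

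Digestive genes gave 4 lower of 10 tested and ion transport genes 4 lower of 10, with 2 each after weighting. Of all tested genes 17.0% were lower, and 11.9% after weighting. ANPEP/CG14516 DAPMA1EVG028352, an aminopeptidase entry, had 0 counts in mixed members against 246, and 1 in young members against 1213. Of the 246 counts in other mixed barcodes 243 lay in FYB, where members had 0. In MY1 and MY2 both classes had 0 counts of it, so the mixed contrast rests largely on FYB. With the low member counts raised to the floor used for ratios, its weighted ratios were 0.218 in the mixed and 0.0291 in the young sample. In the muscle list 2 of 8 tested genes were lower, against 17.0% of all tested genes. The summed ratio was 0.578 in the mixed and 0.619 in the young sample. Of the 8 tested muscle genes 6 lay below 1 in both samples and 2 lay above 1 in both. The giant muscle protein TTN/SLS (DAPMA1EVG027627) had 84.2 CPM in mixed members against 151 CPM and 422 CPM in young members against 871 CPM. ATP2A1/SERCA (DAPMA1EVG012354) went the other way, at 1.38-fold in the mixed and 1.48-fold in the young sample. Its weighted ratios were 1.11 and 1.28.

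Neuronal genes differed among themselves. The 7 tested had a median log2 ratio of −1.30 in the mixed and −0.87 in the young sample, and −0.63 and −0.03 after weighting, and 4 lay below 1 in both samples. The summed neuron list was 0.915-fold in the mixed and 0.718-fold in the young sample, and 0.945-fold and 0.880-fold after weighting. At 2-fold 2 were lower, the synaptic vesicle proteins RAB3C/RAB3 (DAPMA1EVG030967) and SYN1/SYN (DAPMA1EVG015402), and both stayed lower after weighting. Of all tested genes 17.0% were lower, and 11.9% after weighting. STMN4/STAI (DAPMA1EVG015541), stathmin, held 731 of the 1107 counts of the list in mixed members. It had 1539 CPM in mixed members against 848 CPM and 1018 CPM in young members against 1070 CPM. Of the 3 tested photoreceptor genes 0 passed in either direction.

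Neural progenitor genes pointed in several directions. TRIM3/BRAT (DAPMA1EVG011836), named for the fly growth suppressor brain tumor, was higher, with 387 CPM in mixed members against 189 CPM and 361 CPM in young members against 117 CPM, and weighted ratios of 1.84 and 1.47. PROX1/PROS (DAPMA1EVG011470), named for prospero, which ends neuroblast divisions in the fly, had 10.5 CPM in mixed members against 137 CPM and 36.1 CPM in young members against 117 CPM, with weighted ratios of 0.171 and 0.683. GRHL1/GRH (DAPMA1EVG011145), grainy head, a regulator of epidermal genes as well as of fly neuroblasts, had 10.5 CPM in mixed members against 114 CPM and 18.1 CPM in young members against 116 CPM. Of 6 tested genes 1 was higher and 2 were lower, 0 and 1 after weighting, and the summed ratios were 0.869 and 0.925. Of all tested genes 6.56% were higher and 17.0% lower, and 0.361% and 11.9% after weighting.

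Further lower genes near the end of the range were COMP/TSP (DAPMA1EVG023741), a thrombospondin entry, TFPI/CG2816 (DAPMA1EVG014427), CCBE1/YL (DAPMA1EVG020574), KAZALD1 (DAPMA1EVG022326) and FAM162A/CG9231 (DAPMA1EVG016157), each with 1 to 3 counts in the members of each sample. Each had at least 110 CPM in the other barcodes of both samples. The counting intervals of these ratios are wide; for COMP/TSP the log2 ratio lay between −9.57 and −4.66 in the mixed sample and between −11.24 and −3.45 in the young sample. With counts under 3 set to 3, weighted ratios in the mixed sample ran from 0.0443 for COMP/TSP to 0.128 for KAZALD1. In the young sample they ran from 0.0462 for FAM162A/CG9231 to 0.112 for TFPI/CG2816. In other mixed barcodes FYB held 365 of the 414 counts of CCBE1/YL and 373 of the 409 counts of KAZALD1. The entries without a symbol DAPMA1EVG021363 and DAPMA1EVG018186 ranked first among those without a symbol. DAPMA1EVG021363 had 4 counts in mixed members against 2634, and 3 in young members against 2280.

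The levels also followed the number of rule genes in a barcode, on both sides of the threshold. In the mixed sample the mitosis list stood at 2853, 5372, 11253, 13656 and 14736 CPM in barcodes with 0, 1, 2, 3 and 4 or more rule genes. In the young sample it stood at 2201, 4652, 7588, 7510 and 10157 CPM. Barcodes with 2 rule genes, counted among the others, were thus close to those with 3 in this list. H1F0/HIS1:CG33861 stayed low up to 2 rule genes in the mixed sample, at 107, 155 and 193 CPM, and stood at 625 CPM with 3 and 1393 CPM with 4 or more. The young values were 174, 130, 377, 502 and 934 CPM. The epidermis and cuticle list had 2824 and 5052 CPM with 0 and 1 rule gene in the mixed sample, and 655, 695 and 553 CPM with 2, 3 and 4 or more. Median depth moved with these classes, at 1433, 1559, 1652, 1914 and 2143 UMIs in the mixed sample and 1412, 1549, 1873, 2530 and 3027 UMIs in the young sample. Barcodes with no rule gene were therefore weighted to the codes and depths of each class. Against them the mitosis list was 1.67, 2.86, 3.50 and 3.54-fold in mixed barcodes with 1, 2, 3 and 4 or more rule genes, and 2.28, 3.67, 3.51 and 4.65-fold in young ones. H1F0/HIS1:CG33861 was 1.32, 1.88, 5.82 and 10.6-fold in mixed barcodes and 0.788, 2.28, 2.95 and 4.72-fold in young ones. The epidermis and cuticle list was 0.132-fold in mixed and 0.124-fold in young barcodes with 3 rule genes.

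**Figure D5:**
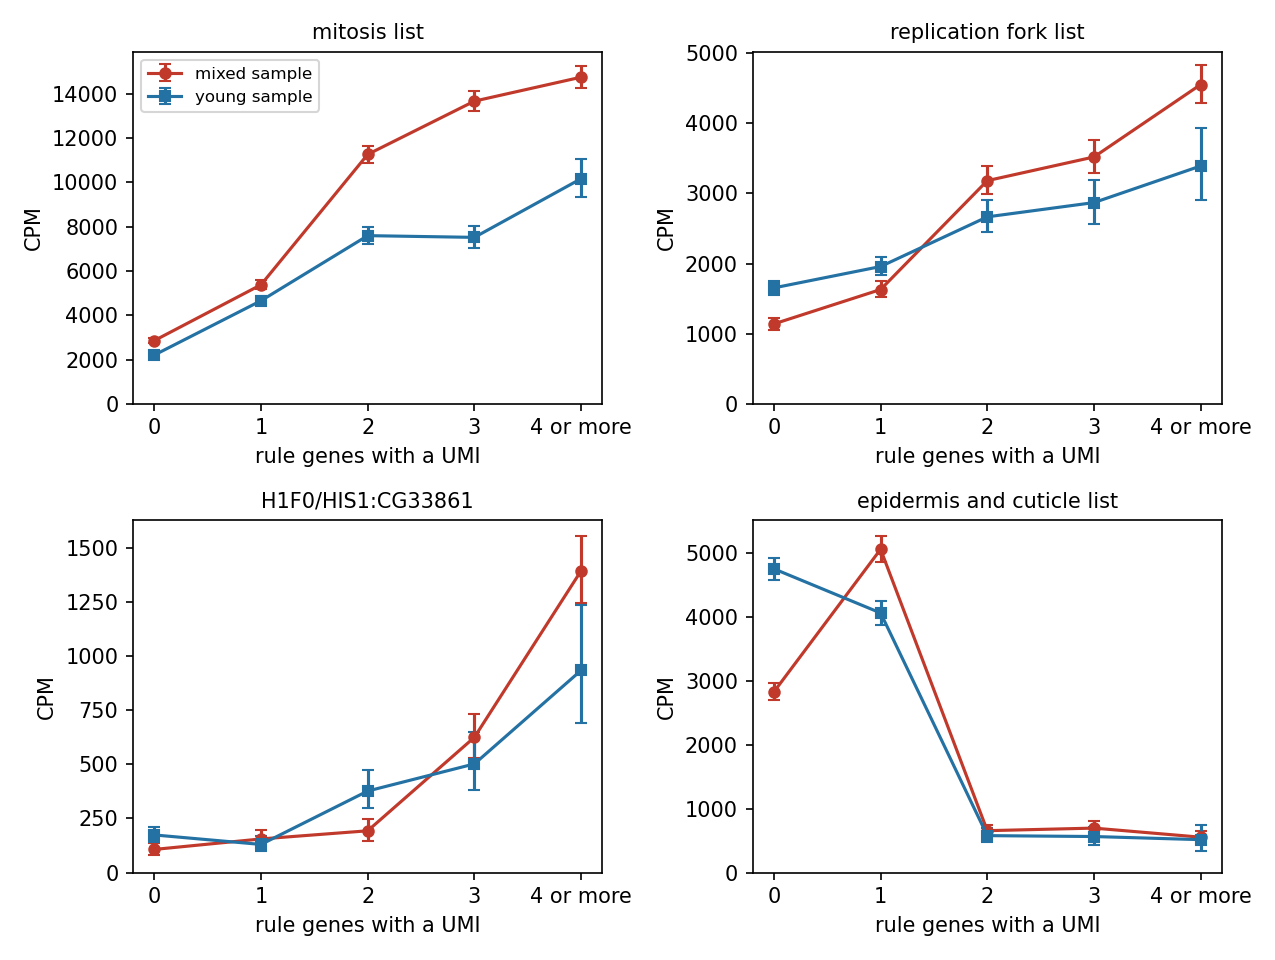
CPM of the summed mitosis list, the summed replication fork list without the rule genes, H1F0/HIS1:CG33861 and the summed epidermis and cuticle list, by the number of rule genes with a UMI in a barcode, in the mixed (red circles) and young (blue squares) sample; bars are exact 95% Poisson intervals. Mitosis and fork genes are higher in barcodes with 2 rule genes than in those with 0 or 1, the histone entry is highest with 4 or more, and the cuticle list is low from 2 rule genes upwards.

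The mixed matrix lists 48846 barcodes with 8297129 UMIs and the young matrix 442368 barcodes with 12067158 UMIs, of which barcodes of at least 1000 UMIs hold 23.2% and 11.9%. The mixed barcodes come in 2 lanes, with 116 members in one and 103 in the other. The barcode lists give no barcode sequences, so barcodes shared between lanes or codes were not counted. As a description, the similarity of 2 barcodes was taken as the cosine of their square-root UMI shares, centred on the code's mean, which is 1 for identical profiles. The median similarity of a barcode of one lane to its closest in the other lane was 0.382 in FYB, 0.134 in MY1 and 0.150 in MY2, and to its closest in its own lane 0.382, 0.134 and 0.151. It was higher across lanes in FYH (0.3947 against 0.3315), FO1 (0.2792 against 0.2112) and F4W (0.1519 against 0.0729). In FO2 it was lower across lanes (0.2687 against 0.2891). Whether barcodes recur in both lanes was not tested.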

How the data were processed

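Whole-body single-cell libraries of 2 samples, 1 per group, were analysed. The authors deposited whole-number counts per gene and barcode, per the file headers, with no normalization found in the values; the aligner, build and UMI collapsing are not given in the sources used here. Gene names come from the files, which join a human and a fly symbol; none of the identifiers matched the RefSeq table at hand, so no sequence or coordinate is given.

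Members are barcodes of at least 1000 UMIs with a UMI in at least 3 of 9 rule entries, and all other such barcodes are the comparison. Counts were summed per sample and class and divided by the sum to give CPM, counts per 1000000 UMIs. The ratio is members over others, and a count under 3 was set to 3. A gene was tested when its expected count in the members' sum was at least 10 in each sample, and called at 2-fold in the same direction in both samples. With 1 sample per group and cells that are not replicates, no p-value is given. Intervals are exact at 95% (Clopper-Pearson, Poisson, conditional binomial) and cover counting error only. Weighted values weight the other barcodes to the members' mix of library codes and of depth classes bounded at 1500, 2000 and 3000 UMIs; a stratum with under 5 other barcodes took the whole code. Named genes were the 12 with a symbol and the 2 without in each direction with the largest smaller ratio, and in each gene list the 4 tested with the most counts; other list genes named are those past 2-fold or singled out after their values were seen. Some genes that this rule selects are not reported here. The members, the lists and the rules were chosen with earlier results of these data known, and the histone, ribosomal protein and mitochondrial lists were added after the files were seen. From the lists 127 entries whose symbols name different genes were left out. The 7 mitochondrial entries had too few counts to be tested; they summed to 0.636-fold in mixed and 0.414-fold in young members, and 0.980-fold and 1.03-fold after weighting. Doublets were not removed.

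On simulated counts, 195 of 200 changed genes passed the minimum and 193 were called, with 0 calls among 2916 unchanged genes; the simulation held counting error only. Python 3.11.15, numpy 2.4.6, scipy 1.17.1 and pandas 2.3.3 were used, with TMM factors from edgeR 4.0.16 in R 4.3.3. Alternatives covered the rule, the depth minimum, scaling, filters, weighting, thinning and each library code left out.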

Additional observations from a re-analysis of the deposited data

Results flagged for a closer look

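Some genes had a ratio of members over other barcodes on one side of 1 in the mixed sample and on the other in the young sample, with counting intervals that exclude 1 in both. The difference between the samples was not tested, since each is 1 library set.

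MYCN/MYC (DAPMA1EVG027932), a driver of cell growth, had a log2 ratio of −0.262 in the mixed sample and 1.49 in the young sample. Within codes it was higher in members in 6 of 6, from 1.17-fold in FYB to 3.26-fold in CH2. Without depth weighting, the mixed value below 0 thus appeared only in the sum over codes. Weighted by depth within codes, it was higher in 5 of 6, and 0.789-fold in FYB. After weighting by code and depth its log2 ratios were 0.0582 in the mixed and 0.631 in the young sample. In other barcodes it stood at 753 CPM in FYB, against 168 CPM in MY1 and 297 CPM in MY2, which hold most members.

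HES1/E(SPL)MBETA (a000024F_p16.52), a target of Notch signalling in the fly, had −1.15 in the mixed and 0.907 in the young sample. The carbonic anhydrase CA2/CAH1 (DAPMA1EVG014910) had −0.374 and 0.807, and 0.259 and 0.0342 after weighting by code and depth, so its samples no longer lay on different sides. HES1/E(SPL)MBETA still did, with −0.690 and 1.03. Of the ribosomal protein genes, the unweighted log2 ratios were −0.206 and 0.479 for RPL10/RPL10, −0.381 and 0.282 for RPL18/RPL18, and −0.566 and 0.275 for RPS23/RPS23. TMM scaling moves young log2 ratios by 0.37, which puts the last pair below 0 in both samples. Weighting left RPL10/RPL10 at 0.0231 and 0.00277. RPL18/RPL18 stayed on different sides of 0 after weighting, at −0.120 and 0.0626, and so did RPS23/RPS23, at −0.219 and 0.266. No direction is given for any of them. The summed ratio of the ribosomal protein list was 0.773 in the mixed and 1.25 in the young sample.

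Below the depth minimum, 46 of 1219 mixed barcodes of 500 to 999 UMIs met the rule, or 3.77% (2.78 to 5.0), while 0 of 1292 young barcodes did, which allows up to 0.232% (3 of 1292; the exact 95% upper limit is 0.285%).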

How the results depend on the processing

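The share of members followed the rule and the depth. In the mixed sample it was 11.8% and in the young sample 2.86% at a minimum of 500 UMIs, 32.7% and 19.0% at 2000 UMIs, 36.9% and 19.2% with at least 2 rule genes, 10.3% and 2.35% with at least 4, and 8.80% and 2.23% after thinning. Without a code the mixed share was 31.1% (FYB), 18.5% (MY1) and 13.1% (MY2), and 8.07% without MY1 and MY2, a setting chosen after seeing the data. The 200 higher genes became 36 with TMM scaling, 40 at an expected count of at least 30 (fewer genes tested), 2774 with no filter, 104 weighted by code, 11 weighted by code and depth, 465 against barcodes without any rule gene, 16 with at least 4 rule genes (fewer members), 562 at 1.5-fold, 32 after thinning, and 108, 71 and 113 without FYB, CH1 and CH2. The 519 lower genes became 233 at an expected count of at least 30, 258 with at least 4 rule genes and 257 after thinning. In the mixed sample 2 named genes turned direction, H1F0/HIS1:CG33861 at −1.06 and the unnamed DAPMA1EVG004595 entry at −0.299 without MY1 and MY2. With 0 counts in members, CCBE1/YL at 2000 UMIs (5 in others) and ANPEP/CG14516 without FYB (3 in others) gave no value there. Of the other values for named genes 1011 stayed within the set margin and 217 moved, and of list medians 816 stayed and 64 moved; weighting by code and depth moved 34 values for named genes (22 stayed) and 17 list medians (23 stayed). No paired analysis was possible because each group has 1 sample. Depth limits the genes that load the helicase, none of which reached the minimum count.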
